A study of Mus musculus with 26 samples.

Results

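Malat1 and 8 genes that flank it on mouse chromosome 19 (Ltbp3, Neat1, Frmd8, Slc25a45, Tigd3, Dpf2, Cdc42ep2 and Pola2) were followed through 26 RNA-seq libraries. The 9 genes were chosen by position, from 37310 genes counted in every library. All were found in the count files. The question was whether lowering Malat1 with antisense oligonucleotides was accompanied by changes in the genes around it, and how each gene related to the Malat1 level itself. Malat1 (ENSMUSG00000092341.1) lies at positions 5795690 to 5802672 of chromosome 19 on the minus strand in GRCm38. Ltbp3 lies 37.2 kb away on the side of lower coordinates. On the other side Neat1 lies 22 kb away, Frmd8 47.0 kb, Slc25a45 75.1 kb, Tigd3 88.5 kb, Dpf2 93.8 kb, Cdc42ep2 113.0 kb and Pola2 137.9 kb.

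The libraries came from mammary tumors of C57BL/6 mice carrying MMTV-PyMT, a transgene in which the mouse mammary tumor virus promoter drives the polyoma middle T oncogene in mammary epithelium. Mice received ASO1 (3 tumors) or ASO2 (4 tumors), both against Malat1, or the control oligonucleotide scASO (3 tumors), at 125 mg/kg per week under the skin over several weeks. Organoids, clusters of tumor cells from the same model grown in Matrigel with FGF2, received 500 nM of ASO1, ASO2 or scASO, or were a Mock group for which no oligonucleotide is named, with 4 libraries in each group. Treatment lasted 6 days, with the oligonucleotide renewed on day 3. The transgene was carried by every group, controls included. The labels do not say that the libraries came from separate mice or separate cultures, so p-values measure the spread between these libraries.

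Malat1 is an abundant long noncoding RNA of nuclear speckles, the bodies that store splicing factors. Neat1, its neighbour, is the architectural RNA of paraspeckles, and only its long isoform builds them. Both RNAs are cut at their 3′ end by RNase P, which frees a tRNA-like small RNA, and both are protected there by a triple helix formed by 2 U-rich tracts and an A-rich tract instead of a poly(A) tail. An antisense oligonucleotide with a DNA core pairs with its target RNA and recruits RNase H, which cuts the RNA in the nucleus. Mice that lack Malat1 are viable, and altered expression of genes next to the Malat1 locus has been described in some of their tissues.

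The 3′ ends are shown because the libraries were made from polyadenylated RNA and these RNAs differ in how they end. The letters are those of GENCODE M21, written 5′ to 3′ as DNA, with the T-rich tracts, the A-rich end and the poly(A) signal AATAAA in capitals.
Malat1-201: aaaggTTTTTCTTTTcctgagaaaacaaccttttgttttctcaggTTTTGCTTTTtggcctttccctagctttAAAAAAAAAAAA
Neat1-201: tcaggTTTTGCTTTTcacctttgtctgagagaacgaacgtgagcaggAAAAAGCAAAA
Neat1-202: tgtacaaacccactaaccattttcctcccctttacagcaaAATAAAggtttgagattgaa
The Malat1 stretch covers bases 6601 to 6685 of a single-exon transcript of 6983 bases (chr19:5795988-5796072, minus strand), and the annotated transcript runs 298 bases past the encoded run of A. The stretch from the long Neat1 isoform is its last 58 bases of 20771 (chr19:5824708-5824765, minus strand). The short isoform, of 3004 bases, holds a poly(A) signal 14 bases before its end (chr19:5842307-5842366, minus strand). The long Neat1 transcript thus closes on an encoded A-rich stretch, like the one inside the annotated Malat1 transcript, whereas the short Neat1 isoform has a canonical poly(A) signal near its end. The count files give 1 value per gene, so the Neat1 isoforms could not be told apart.

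Reads assigned to genes ranged from 9.94 to 51.4 M per tumor library and from 23.97 to 65.2 M per organoid library. Levels are given as CPM, each gene's reads relative to the library total, scaled over all 26 libraries by the trimmed mean of M values (TMM). All 8 epithelial markers (Epcam, keratins 8, 18 and 19, Cdh1 and others) were detected in every library, with summed levels of 3329 to 5290 CPM in tumors and 5303 to 9681 CPM in organoids. Summed leukocyte markers were 140 to 1160 CPM in tumors and 15.99 to 82.4 CPM in organoids. Organoid libraries with the same replicate number resembled each other in all groups, so a fit that includes the number (the replicate block) is given beside the fit by group alone wherever the call differs. A pair of organoid libraries went against their labels by their Malat1 level, the library labelled ASO2 replicate 1 and the library labelled scASO replicate 2, and organoid results that rest on them are given with and without them. Slc25a45 and Pola2 set the same 2 libraries apart from their numbers. The library labelled scASO replicate 2 had 15.2 and 37.5 CPM, and the library labelled ASO2 replicate 1 had 8.48 and 24.97 CPM. Mock replicate 1 had 14.3 and 35.8 CPM, and Mock replicate 2 had 9.21 and 24.1 CPM. Fits with the block and comparisons within a number use the labelled numbers, and whether these are right was not tested.

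Malat1 was lower in ASO-treated tumors. Its level was 1597, 1926 and 851 CPM in the 3 scASO tumors. It was 818, 765 and 417 CPM in the ASO1 tumors and 589.6, 917, 646 and 365 CPM in the ASO2 tumors. The groups overlapped by 1 tumor on each side, an ASO2 tumor at 917 CPM above the scASO tumor at 851 CPM. Across both ASOs the geometric mean was 44.6% of that in scASO (exact two-sided permutation test, p = 0.0167, 7 against 3 tumors). In the edgeR quasi-likelihood fit across 17354 genes the log2 change was -1.14 ± 0.32 (SE), which did not pass the threshold (adjusted p = 0.827). ASO1 and ASO2 alone were at 46.4% and 43.3% of scASO (exact permutation p = 0.1, the smallest that 3 against 3 can give, and p = 0.0857). All 3 ASO1 tumors lay below all scASO tumors, which held for 9.61% of genes in that direction. Without scASO replicate 1, or without scASO replicate 2, the permutation p was 0.0833.

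In organoids the Malat1 level was 758, 1549.8, 725 and 1337 CPM in Mock (numbers 1 to 4), and 819, 117, 792 and 1206 CPM in scASO. It was 182, 113, 88.0 and 126 CPM in ASO1, and 1463, 217, 96.9 and 311 CPM in ASO2. Thus 7 of the 8 libraries labelled as ASO-treated lay below every Mock library, and the library labelled ASO2 replicate 1 lay above 3 of the 4. The library labelled scASO replicate 2 lay within the range of ASO1. The geometric mean over both ASOs was 18.97% of Mock (exact two-sided permutation test, p = 0.0101, 8 against 4) and 35.6% of scASO (p = 0.123, same exact test). Without the 2 libraries it was 14.2% of Mock and 15.96% of scASO. These libraries were named by their Malat1 level, so Malat1 values without them are descriptions, with no test.

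**Figure D1:**
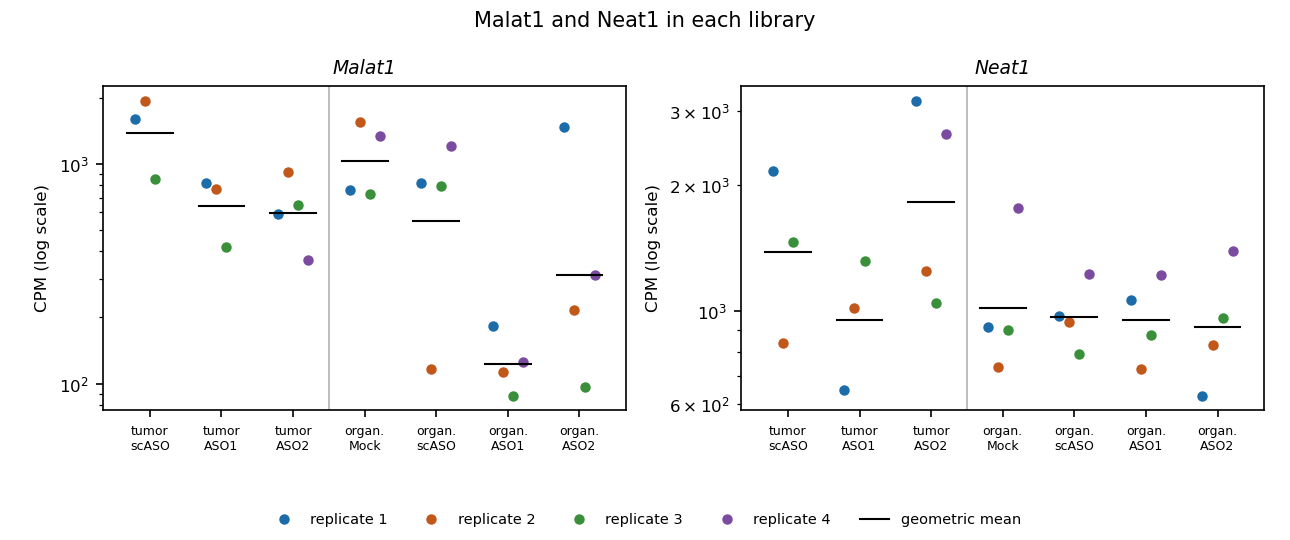
Malat1 (left) and Neat1 (right) in each of 26 libraries, in CPM on a log axis; points are libraries coloured by replicate number, bars are geometric means of the group, and organ. stands for organoid. Malat1 spans 88.0 to 1926 CPM, with 1 ASO2 and 1 scASO organoid library going against their labels, whereas Neat1 shows no such separation by treatment.

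By the model across all genes, no Malat1 change passed the threshold in the group-only organoid fit: the log2 change was -1.53 ± 0.61 against scASO and -2.10 ± 0.60 against Mock (edgeR, adjusted p = 1.00 for both). For ASO1 alone DESeq2 called Malat1 against Mock (-3.12, adjusted p = 0.0282), where edgeR by group did not (-3.12 ± 0.79, adjusted p = 1.00). With the replicate block the change against Mock was -2.47 ± 0.56 (edgeR, adjusted p = 0.0267), and Malat1 fell. Against scASO the block gave -1.72 ± 0.57 (adjusted p = 0.202), with 0 genes called in all. For ASO1 alone Malat1 fell against Mock with the block (-3.29 ± 0.70, adjusted p = 0.0256), and for ASO2 alone it did not pass (-1.66 ± 0.70, adjusted p = 0.260). With the block and without the 2 libraries the estimates were -2.67 ± 0.23 against scASO and -2.78 ± 0.21 against Mock, with -0.11 ± 0.27 for scASO against Mock. In the main fits of both systems the tumor and organoid Malat1 responses differed by -0.35 ± 0.82, which did not pass (edgeR, adjusted p = 1.00). Without the 2 libraries the estimate was -1.37 ± 0.52.

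Per kilobase of exon, the 9 genes spanned more than 2 orders of magnitude. Malat1 had the highest median over all libraries, 106 RPKM (CPM divided by exon length in kilobases), with a range of 12.6 to 276. Neat1 followed at 47.9 RPKM (30.3 to 152) and Ltbp3 at 44.4 (28.7 to 81.8), and these ranges overlap. The exon length used for Neat1 was 20771 bases, that of its long isoform. With the 3004 bases of the short isoform the Neat1 values would be higher, so its rank below Malat1 depends on the length used. Frmd8 (14.9 RPKM, 7.83 to 22.5) and Dpf2 (11.5, 9.36 to 13.7) formed the next pair, below every Ltbp3 value. Slc25a45 had 5.23 RPKM (1.13 to 11.4) and Pola2 3.15 (2.29 to 4.80). Cdc42ep2 (0.745 RPKM, 0.331 to 1.37) lay below every Pola2 value. Tigd3 came last at 0.291 RPKM (0.0581 to 0.709), from 4 to 78 reads per library, so that its values carry the largest counting error of the 9.

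Neat1 did not separate by treatment. It was at 2155, 842 and 1465 CPM in scASO tumors, at 648, 1015 and 1315 CPM in ASO1 tumors and at 3165, 1248, 1048 and 2641 CPM in ASO2 tumors. The log2 change over both ASOs was -0.03 ± 0.41 (edgeR, adjusted p = 0.995), with an interval of 2 SE from -0.86 to 0.80. ASO1 tumors were lower than ASO2 tumors by an estimate of -1.06 ± 0.47, which did not pass (edgeR, adjusted p = 0.496). In organoids Neat1 ranged from 737 to 1761 CPM in Mock, 790.2 to 1229 in scASO, 728 to 1220.3 in ASO1 and 629 to 1392 in ASO2. Its log2 change was -0.04 ± 0.26 against scASO and -0.18 ± 0.26 against Mock (edgeR, adjusted p = 1.00 for both). The highest organoid value in every group was that of number 4.

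A ratio of Malat1 to Neat1 counts within a library does not depend on library scaling. Its geometric mean was 0.446 over the 7 ASO tumors and 0.995 over the 3 scASO tumors, a difference that the exact permutation test did not separate (two-sided p = 0.208). ASO2 tumors spanned 0.138 to 0.735 and scASO tumors 0.581 to 2.29. In organoids the ratio was 0.210 over both ASOs and 1.01 in Mock (exact permutation test, p = 0.0162, 8 against 4), and 0.566 in scASO (exact p = 0.156). Without the 2 libraries the ratio was 15.8% of scASO, again a description.

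Among the 7 protein-coding neighbours, none was called in the tumors. With edgeR 0 of 17354 genes passed in the comparison of both ASOs with scASO (0%), against 1017 genes (5.86%) at an unadjusted p under 0.05. DESeq2 called 18 genes there, none of them among the 9. For ASO1 against scASO 1 gene was called, higher, the transporter gene Slc47a1 (0.00576%, with 8.45% at an unadjusted p under 0.05), and for ASO2 none (0%, with 5.14%). The median log2 change of the 8 neighbours was -0.07, beside 0.05 over all genes tested.

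Tigd3, which encodes a protein derived from a tigger transposase, was at 0.677, 0.578 and 0.661 CPM in scASO tumors. It was at 0.783, 1.32 and 1.08 CPM in ASO1 tumors and at 1.53, 0.773, 1.35 and 0.987 CPM in ASO2 tumors. All ASO tumors lay above all scASO tumors, which held for 0.784% of genes in that direction. The log2 change was 0.83 ± 0.35 (edgeR, adjusted p = 0.827), on 11 to 78 reads per tumor.

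Cdc42ep2, an effector of the small GTPase Cdc42 that acts on septins and cell shape, was at 1.33, 1.13 and 1.90 CPM in scASO tumors. It was at 3.02, 4.66 and 3.19 CPM in ASO1 tumors and at 3.19, 2.54, 1.28 and 1.97 CPM in ASO2 tumors. The ASO1 tumors were all above scASO, which held for 7.15% of genes in that direction, and ASO2 overlapped with it. The log2 change was 1.01 ± 0.37 over both ASOs and 1.35 ± 0.42 for ASO1 (edgeR, adjusted p = 0.827 and 0.535).

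Pola2, the accessory subunit of DNA polymerase alpha, spanned 18.97 to 20.2 CPM in the 3 scASO tumors, 21.4 to 39.8 CPM in ASO1 and 19.4 to 29.3 CPM in ASO2. The ASO1 tumors were all above scASO, as for 7.15% of genes in that direction, and ASO2 overlapped with it. The Pola2 estimate over both ASOs was 0.45 ± 0.23 (edgeR, adjusted p = 0.827). Frmd8, a scaffold protein that binds iRhom and stabilizes the shedding protease ADAM17 at the cell surface, was at 75.5, 64.9 and 72.9 CPM in scASO tumors. It was at 50.1, 45.9 and 75.1 CPM in ASO1 tumors and at 39.8, 64.4, 51.7 and 66.5 CPM in ASO2 tumors. Its estimate lay below 0, at -0.31 ± 0.19 (edgeR, adjusted p = 0.842).

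Ltbp3, which binds latent TGF-beta and aids its secretion, spanned 577 to 741 CPM in scASO, 369.6 to 531 in ASO1 and 492 to 742 in ASO2 tumors, with a log2 change of -0.31 ± 0.18 (edgeR, adjusted p = 0.835). Its ASO1 values were all below scASO, as for 9.61% of genes in that direction. Slc25a45, a mitochondrial carrier of the SLC25 family, spanned 22.2 to 29.9 CPM in scASO, 6.80 to 24.3 in ASO1 and 20.2 to 31.6 in ASO2, with a change of -0.32 ± 0.31. Dpf2, a subunit of BAF chromatin remodelling complexes, had the smallest spread of the 9, at 77.0 to 80.5 CPM in scASO and 61.4 to 79.5 CPM over the ASO tumors, with a change of -0.10 ± 0.11. Its interval of 2 SE ran from -0.32 to 0.13.

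In these bulk samples fewer cells of a type and less RNA per cell cannot be told apart. All 6 adipocyte markers had tumor estimates above 0 at an unadjusted p under 0.05, with none called. Of all genes, 5.86% had such a p in either direction for both ASOs against scASO. The summed level of the adipocyte markers was 5.83 to 7.57 CPM in scASO, 6.93 to 22.3 CPM in ASO1 and 20.7 to 534 CPM in ASO2 tumors. Summed skeletal muscle markers were 2.18 to 23.4 CPM in scASO and reached 1347 CPM in 1 ASO2 tumor. Summed epithelial markers were 4166 to 5200 CPM in scASO, 3329 to 4880 in ASO1 and 3617 to 5290 in ASO2. The part of these cells in the tumor values of the 9 genes was not tested.

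**Figure D2:**
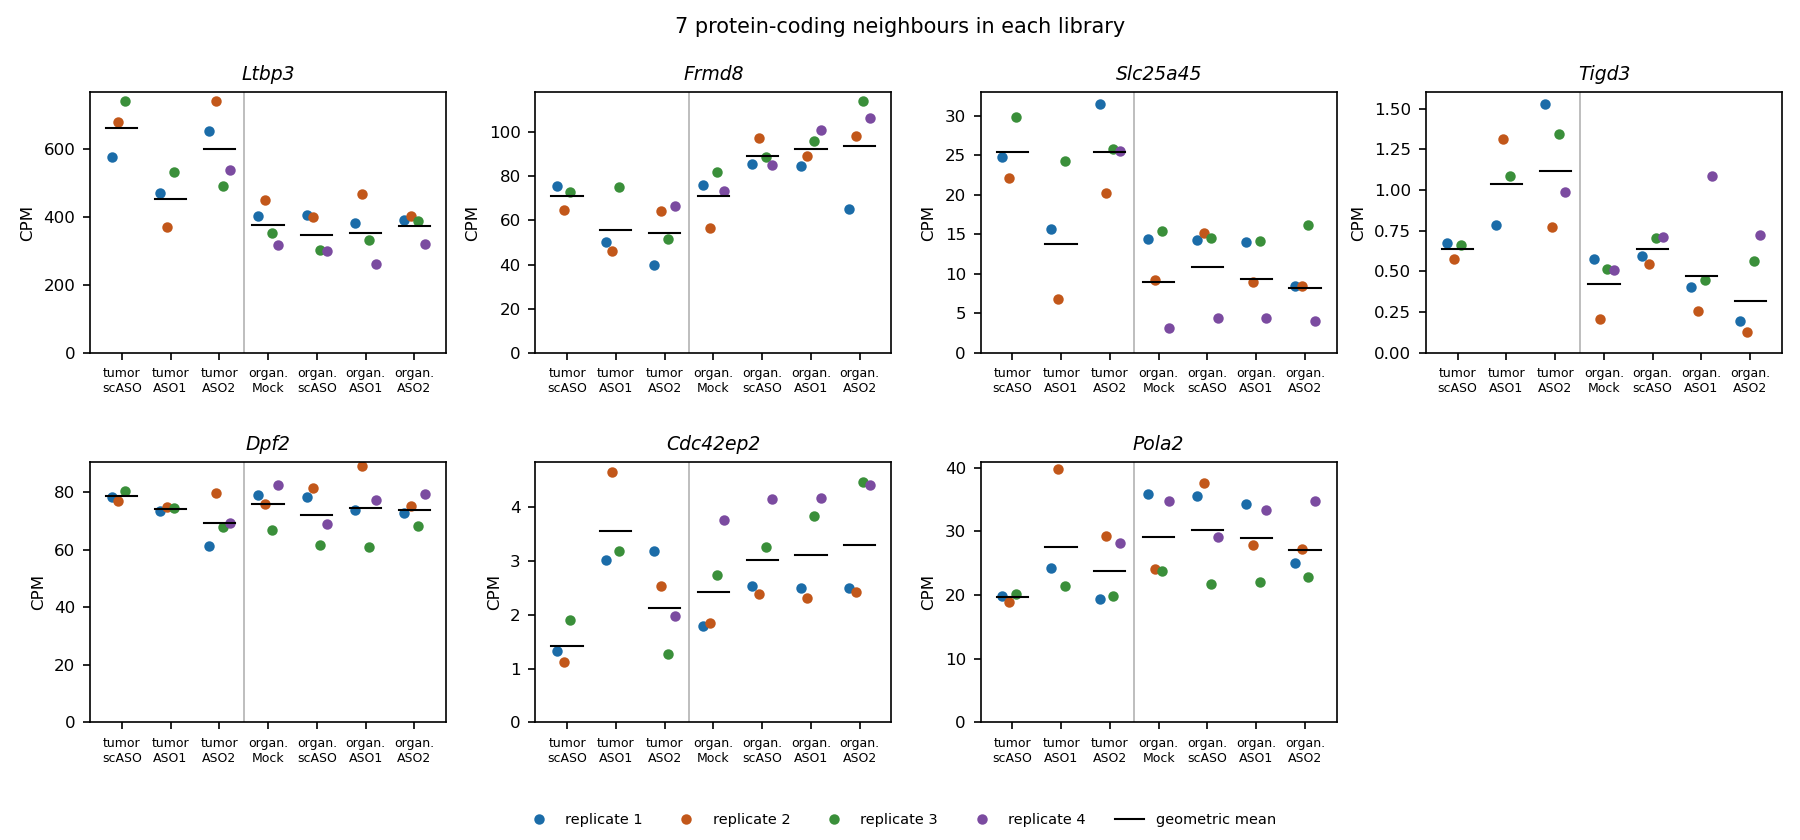
CPM of the 7 protein-coding neighbours in each library, on linear axes from 0; points are libraries coloured by replicate number and bars are geometric means of the group. Tigd3 lies above scASO in all 7 ASO tumors (0.773 to 1.53 against 0.578 to 0.677 CPM), and Frmd8 lies above Mock in all 4 scASO organoid libraries.

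In organoids by group alone, none of the 9 genes was called against scASO or against Mock. With edgeR 0 of 17126 genes passed in either comparison (0%), and 182 (1.06%) and 468 (2.73%) had an unadjusted p under 0.05. Taken singly, ASO1 and ASO2 gave 0 calls against scASO (0.257% and 1.68% at an unadjusted p under 0.05) and against Mock (1.93% and 1.82%), and so did scASO against Mock (1.59%). With the block, which follows the labelled numbers of the organoids, 738 genes (4.31%) were called for both ASOs against Mock, 407 (2.38%) for ASO1, 312 (1.82%) for ASO2 and 128 (0.747%) for scASO, with 0 for both ASOs against scASO. Malat1 was among the first 2 of these sets, and no neighbour was in any of them. DESeq2 called 0 genes against scASO and 5 against Mock, none of them among the 9. Against scASO the 8 neighbours had estimates from -0.44 (Tigd3) to 0.10 (Cdc42ep2). Against Mock, 6 of them lay between -0.18 and 0.05, and 2 lay further out, Frmd8 and Cdc42ep2.

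Frmd8 was at 76.1, 56.4, 81.8 and 73.4 CPM in Mock (numbers 1 to 4) and at 85.6, 97.3, 88.6 and 85.2 CPM in scASO. It was at 84.8, 89.3, 95.9 and 100.8 CPM in ASO1 and at 65.2, 98.1, 114.3 and 106.6 CPM in ASO2. All ASO1 and all scASO libraries were above all Mock libraries, which held for 0.712% and 0.467% of genes in that direction. In ASO2 the library labelled replicate 1 was the one below the Mock library of its labelled number (65.2 against 76.1 CPM). This library lay above Mock replicate 2 (56.4 CPM), and its number is in doubt. Within a number the ratio to Mock was 1.11 to 1.58 for ASO1, 0.856 to 1.74 for ASO2 and 1.08 to 1.73 for scASO. The 0.856 and the 1.73 came from the 2 libraries that went against their labels. Without them the ratio was 1.397 to 1.74 for ASO2 and 1.08 to 1.162 for scASO. The scASO range still overlapped with that of ASO1.

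The log2 change of Frmd8 over both ASOs was 0.38 ± 0.14 against Mock by group alone (edgeR, adjusted p = 1.00) and 0.37 ± 0.12 with the replicate block (adjusted p = 0.0967). With the block and without the 2 libraries it was 0.45 ± 0.07 (adjusted p = 0.00233). In that fit 9.86% of all genes were called, 5.52% higher. ASO1 and ASO2 gave 0.35 ± 0.08 (adjusted p = 0.0152) and 0.55 ± 0.08 (adjusted p = 0.00795) there. scASO also lay above Mock, by 0.22 ± 0.08, which did not pass (adjusted p = 0.220), and both ASOs lay above scASO by 0.23 ± 0.08 (adjusted p = 0.461), which did not pass either.

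Frmd8 was singled out after its values were seen. The 8 neighbours were read in 16 comparisons and slopes under up to 4 kinds of fit (by group, with the block, without the 2 libraries, and with both), and the 2 libraries were named from the Malat1 level. Outside the contrast of organoids with tumors this gave 376 values, of which 4 were called, all Frmd8 and all without the 2 libraries. None of the main fits called a neighbour there. Other alternatives are not in this tally. Among them, the organoid slope with group means called Frmd8, Neat1, Slc25a45, Tigd3 and Pola2. That fit held the 2 libraries, whose Malat1 lay furthest from the rest of their groups, so its calls are not independent of them. The slope with group means was not run without them.

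Cdc42ep2 was at 1.79, 1.85, 2.73 and 3.77 CPM in Mock and at 2.54, 2.38, 3.26 and 4.15 CPM in scASO. It was at 2.49, 2.32, 3.84 and 4.17 CPM in ASO1 and at 2.502, 2.42, 4.46 and 4.40 CPM in ASO2. The groups overlapped, and the numbers 3 and 4 were higher than 1 and 2 in every group. Within a labelled number all 12 libraries given an oligonucleotide were above Mock, with the 2 libraries that went against their labels among them. Each Mock library was used again for every oligonucleotide, so the 12 are not independent. The share of all genes with this pattern was not computed. The log2 change over both ASOs was 0.37 ± 0.30 against Mock by group alone (edgeR, adjusted p = 1.00), 0.39 ± 0.12 with the block (adjusted p = 0.0790) and 0.40 ± 0.12 with the block and without the 2 libraries (adjusted p = 0.0562). For scASO against Mock the block gave 0.31 ± 0.13 (adjusted p = 0.279).

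**Figure D3:**
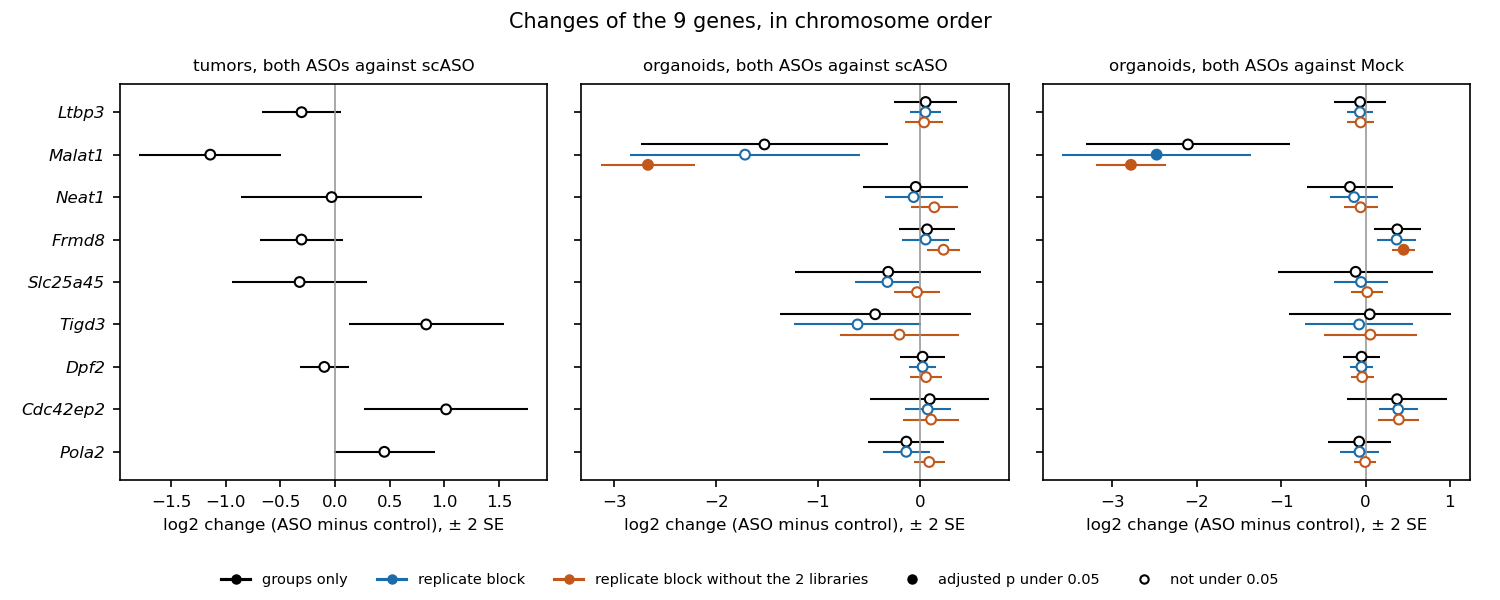
Log2 changes of the 9 genes in chromosome order for 3 comparisons, with bars of 2 SE; colours stand for the fit and filled points for an adjusted p under 0.05. Filled points are those of Malat1 against Mock with the block, of Malat1 in both organoid comparisons without the 2 libraries (which its own level named, so no test) and, against Mock with the block and without the 2 libraries, of Frmd8, and the estimates of Frmd8 lie below 0 in tumors and above 0 in organoids.

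Markers of other cell types were read beside these values. Summed myoepithelial markers were 1721 to 4390 CPM in Mock, 2044 to 5684 in scASO, 2695 to 7949 in ASO1 and 2581 to 7130 in ASO2. Summed epithelial markers were 5641 to 6360 CPM in Mock, 5303 to 6321 in scASO, 5471 to 9203 in ASO1 and 5634 to 9681 in ASO2. Summed leukocyte markers overlapped, at 18.1 to 82.4 CPM in Mock (median 39.6), 19.1 to 62.6 in scASO (43.7), 15.99 to 77.8 in ASO1 (60.4) and 30.8 to 62.9 in ASO2 (48.3). With the block, 2 of 6 myoepithelial markers rose against Mock and 3 of 6 tested leukocyte markers fell, beside 3.08% of all genes higher and 1.23% lower: the keratin genes Krt14 (0.80 ± 0.12) and Krt5 (0.76 ± 0.12), and Ptprc (-1.28 ± 0.20), Adgre1 and Itgam (edgeR, adjusted p from 0.00343 to 0.0429), and the adipocyte gene Fabp4 rose. The macrophage gene Cd68 had 1.22 ± 0.35 (adjusted p = 0.0679). With the block and without the 2 libraries, the fit that called Frmd8, Krt14 rose by 0.83 ± 0.11 and Ptprc was lower at -1.42 ± 0.17 (edgeR, adjusted p = 0.00139 and 0.000715). Their part in the Frmd8 and Cdc42ep2 values was not tested. Slc25a45 varied by number, with all 4 libraries of number 4 at 3.13 to 4.42 CPM and the other 12 at 8.41 to 16.2 CPM. Ltbp3 spanned 260.0 to 466 CPM over the 16 organoid libraries, Dpf2 60.9 to 88.99 CPM and Pola2 21.6 to 37.5 CPM, with overlapping groups.

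The ASO responses of the 2 systems were compared directly in a fit of all 26 libraries, where 0 of 18695 genes were called with edgeR (0%), 831 (4.45%) at an unadjusted p under 0.05 and 2 with DESeq2. Organoids minus tumors, the difference was 0.40 ± 0.23 for Frmd8, -1.26 ± 0.62 for Tigd3, -0.89 ± 0.44 for Cdc42ep2 and -0.57 ± 0.30 for Pola2 (edgeR, adjusted p = 1.00 for each).

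Each gene was then related to the Malat1 level itself, as the log2 change of a gene per log2 unit of Malat1 over libraries, whatever their label. In organoids the fit included the number, and it called 6 of 17125 genes (0.035%), none of them a neighbour. Ghr, Erbb4, Col2a1, Ttc14 and Col25a1 rose with Malat1 (0.0292%) and Tubb6 fell (0.00584%); none of these was a gene of the lists. Frmd8 had the slope furthest from 0 in units of its SE among the neighbours, -0.128 ± 0.027 (edgeR, adjusted p = 0.0720), the 55th smallest p of all. This was 1 of 8 neighbour slopes, while 16.8% of all genes had an unadjusted p under 0.05. Cdc42ep2 had -0.077 ± 0.038 (adjusted p = 0.316). The other 6 slopes ran from -0.106 to 0.014, with Neat1 at -0.028 ± 0.040.

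The Frmd8 slope was past the threshold without the 2 libraries, at -0.118 ± 0.028 (edgeR, adjusted p = 0.0460), where 341 genes (1.97%) were called. With the group means added it was -0.169 (edgeR, adjusted p = 0.002). That fit called 4718 of 17125 genes, Neat1, Slc25a45, Tigd3 and Pola2 included. Group means take out the differences between groups, and the 2 libraries lay furthest from their groups in Malat1. The library labelled ASO2 replicate 1 was at 1463 CPM, with 96.9 to 311 CPM in the rest of ASO2. The library labelled scASO replicate 2 was at 117 CPM, with 792 to 1206 CPM in the rest of scASO. The fit with group means therefore leans on these libraries, and it was not run without them. The Frmd8 slope was not past the threshold without the number in the fit (-0.120, adjusted p = 1.00), without the 4 Mock libraries (-0.075, adjusted p = 0.888) or without Mock replicate 2 alone (-0.096, adjusted p = 0.592). In tumors no gene was called with edgeR (0%, and 7.39% at an unadjusted p under 0.05). The tumor slopes were 0.04 ± 0.13 for Frmd8, -0.48 ± 0.24 for Tigd3, -0.50 ± 0.33 for Cdc42ep2 and -0.34 ± 0.29 for Neat1 (adjusted p from 0.675 to 0.955).

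**Figure D4:**
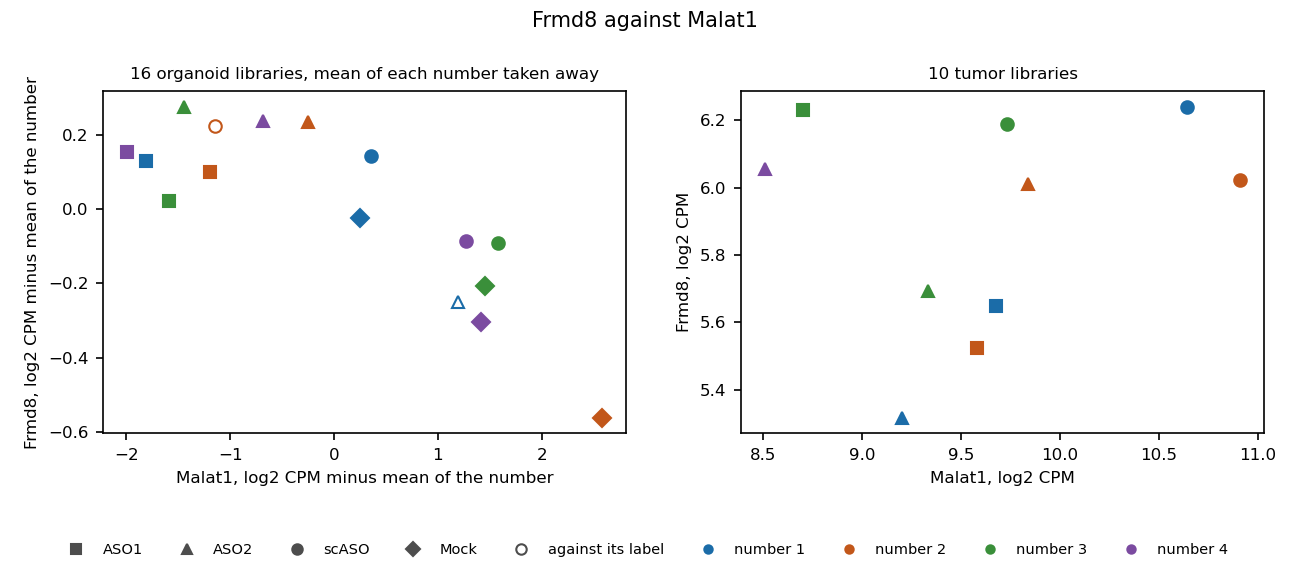
Frmd8 against Malat1 in log2 CPM, for 16 organoid libraries after the mean of each number was taken away (left) and for 10 tumors (right); shapes are groups, colours numbers, and open points the 2 libraries that went against their labels. The organoid points run from low Malat1 with high Frmd8 to the reverse, with Mock replicate 2 at the end, and the tumors show no such order (slope 0.04 ± 0.13).

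Likeness to Malat1 was described as the lower of 2 Pearson correlations of log2 CPM, one over 10 tumors and one over 16 organoid libraries with the mean of each number taken away, among 12189 genes. The libraries share their treatment and batch structure, so these values are descriptions. Ubr3 was most like it (0.850), followed by Arhgef28 (0.813), Pde1a (0.799), Wwox (0.768) and Ptprj (0.736). Of the neighbours, 7 passed the floor on mean level (Tigd3 did not), and none came near: Ltbp3 ranked 1896th (0.122) and Dpf2 5977th, whose correlation was 0.531 in tumors and -0.249 in organoids. Frmd8 ranked 12126th, with 0.175 in tumors and -0.828 in organoids, close to the bottom of the order in organoids alone.

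The wider region was read in the same fits. Of 60 other genes that start within 500 kb of Malat1, 46 were tested in tumors and 45 in organoids. None was called with edgeR in the main comparisons of both ASOs with scASO or Mock, where 1 gene in each had an unadjusted p under 0.05. The nearest on the side of higher coordinates, Frmd8os, had 26 reads over all libraries. With the block, 1 of the 45 was called higher against Mock, Fosl1, a subunit of the AP-1 transcription factor (1.52 ± 0.34, adjusted p = 0.0247), beside 4.31% of all genes. Without the 2 libraries as well, Cst6, a secreted inhibitor of cysteine proteases, joined it (0.67 ± 0.19, adjusted p = 0.0420), so that 2 of 45 were called beside 9.86% of all genes. For the slope on Malat1 in organoids 10 of the 45 (22.2%) had an unadjusted p under 0.05, beside 16.8% of all genes, and the median slope was -0.046 beside -0.001.

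Genes that act on or with these RNAs were read from 4 lists. Of 14 genes linked to the processing and decay of Malat1 (RNase P subunits, exosome subunits, m6A methyltransferases and RNA-binding proteins), none was called with edgeR in the tumors or, by group alone, in organoids. The 2 with the smallest p in tumors were Pop1, an RNase P subunit (0.66 ± 0.27, adjusted p = 0.827), and Hnrnpc, which binds Malat1 (0.38 ± 0.19, adjusted p = 0.827). Their median was 0.10 beside 0.05 over all genes. Of 12 speckle partners none was called, with the splicing factors Srsf1 and Srsf7 at 0.30 ± 0.18 and 0.30 ± 0.19 in tumors and Srsf2 at -0.17 ± 0.12 against Mock in organoids. Of 15 paraspeckle proteins none was called either, with Hnrnpm at 0.27 ± 0.20 and Dazap1 at 0.17 ± 0.16 in tumors. In organoids Sfpq was at -0.28 ± 0.15 against scASO and Pspc1 at -0.14 ± 0.12 against Mock.

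Other long noncoding RNAs were a list of 17, of which 10 were in the files and 9 tested. None was called in the main fits, with Epb41l4aos at 0.38 ± 0.22 in tumors and Rpph1, the RNA subunit of RNase P, at 2.13 ± 0.88 against Mock in organoids (edgeR, adjusted p = 1.00). With the block and without the 2 libraries, 2 of 9 were lower against Mock, beside 4.35% of all genes: the imprinted RNA Meg3 fell by 0.99 ± 0.25 on the log2 scale (adjusted p = 0.0285) and the nuclear RNA Firre by 0.24 ± 0.07 (adjusted p = 0.0465). These 2 are the called members of the list, and Neat1 was not called in that fit (-0.06 ± 0.10).

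Between the systems, under scASO in both, 4392 of 18695 genes (23.5%) were called, and 2 of the 9 were among them (11.4% of all genes were higher in organoids and 12.1% lower). Ltbp3 was at 298 to 404 CPM in organoids and 577 to 741 CPM in tumors, without overlap, as for 21.4% of genes in that direction, and was lower in organoids by a log2 difference of -0.90 ± 0.20 (edgeR, adjusted p = 0.00298). Cdc42ep2 was higher, by a log2 difference of 1.098 ± 0.371 (adjusted p = 0.0357), with 2.38 to 4.15 against 1.13 to 1.90 CPM. That call was lost without tumor scASO replicate 1 or 2, or organoid scASO replicate 3 or 4, where the adjusted p ran from 0.0560 to 0.142. Malat1 (-0.98 ± 0.67), Neat1 (-0.58 ± 0.38) and Pola2 (0.68 ± 0.25, adjusted p = 0.0565) did not pass. With the block Pola2 was called (0.58 ± 0.21, edgeR, adjusted p = 0.0341), where 35.9% of all genes were. The block in these fits gave tumors and organoids of the same number a shared term, although the labels do not link them. Only 2 of 9 same-number tumor pairs correlated above 0.1, which limits all calls with the block here. Pola2 was also called by DESeq2 (adjusted p = 0.0398), with the spread of the compared groups alone (adjusted p = 0.0414) and without tumor ASO1 replicate 2 or 3 or organoid scASO replicate 3. Slc25a45 (-1.06 ± 0.52) did not pass, but was called with the block and without the 2 libraries (-1.14 ± 0.36, adjusted p = 0.0257). Ltbp3 was the one neighbour whose difference between the systems was called in all alternatives that were run.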

How the data were processed

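The authors deposited raw read counts per gene for polyadenylated RNA, 1 file per library. CASAVA, FastQC, STAR, HTSeq, DESeq2 and the mm9 build are named in the submitters' processing notes; their versions and roles, the strand setting and the annotation: not given in the sources used here. Positions and exon lengths came from GENCODE M21 on GRCm38, another build, by gene ID (32620 of 37310 matched a symbol). Relative to gene reads, reads in no feature were 8.34 to 24.5%, ambiguous reads 3.90 to 8.70% and reads with several alignments 21.2 to 44.0%; these stayed out of library sizes. Reads of genes that overlap on opposite strands may be shared.

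Genes were kept by filterByExpr (count of at least 10, total of at least 15), scaled by TMM and tested by the quasi-likelihood method of edgeR 4.0.16, in R 4.3.3. P-values were Benjamini-Hochberg adjusted over all genes, with a threshold of 0.05. All groups of a system shared 1 fit. SE is the change divided by the root of the F statistic. Log2 CPM had a prior count of 2. RPKM was computed from CPM and exon length. Malat1 itself was left out of its slope fits. The fits were tested on simulated counts.

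Replicate numbers come from the titles. All 24 same-number pairs of organoid libraries correlated above 0.1 in their deviations (lowest 0.469, median 0.818, against a median of -0.323 for different numbers). The number was therefore used to pair the organoids. The block in fits of all 26 libraries also gave tumors and organoids of the same number a shared term. Of the 9 tumor pairs, 2 were above 0.1. This limit does not show that each library sits in its own number, which is in doubt for the 2 libraries that went against their labels. No 2 libraries of a group agreed within sampling noise. Agreement was measured by the chi-square per degree of freedom of their counts, which is lower for libraries more alike. Of 36 pairs the lowest was organoid scASO replicates 1 and 2 (15.03), and the next was organoid ASO2 replicates 1 and 2 (43.4). Replicates 1 and 2 had 108 in Mock and 167 in ASO1. What this means for the labelled numbers was not tested.

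Members, lists and tests were chosen with earlier results of these data known. Named were the 9 members, genes called within 500 kb or nearest, called list genes and the 2 of smallest p, and the 5 most like Malat1. A result of 1 other gene is not reported here. Alternatives were scaling, filter, DESeq2 1.42.0, the spread of the compared groups alone, the block, leaving out libraries, and other windows.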

Additional observations from a re-analysis of the deposited data

Results flagged for a closer look

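Over 50 groups of 4 libraries (the 9 genes and the Malat1 to Neat1 ratio), 4 groups held a library far from the others, where the gap to its nearest neighbour exceeded the 95% critical value of Dixon's ratio for 4 samples. Chance flags about 1 in 20 groups. Malat1 was at 1463 CPM in the organoid library labelled ASO2 replicate 1, with 96.9 to 311 CPM in the other 3. The ratio of Malat1 to Neat1 counts was 2.33 in the same library and 0.101 to 0.261 in the rest of its group. It was 2.103 in organoid Mock replicate 2, with 0.759 to 0.825 in the other 3; this is the library with the lowest Frmd8 among the organoids, at 56.4 CPM. Slc25a45 was at 4.41 CPM in organoid scASO replicate 4, with 14.3 to 15.2 CPM in the other 3, and it was also low in the libraries of number 4 in ASO1 (4.42 CPM), ASO2 (4.04 CPM) and Mock (3.13 CPM).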

How the results depend on the processing

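Values are log2 changes or slopes, or counts of genes called; the cause of each difference was not tested. With the replicate block the genes called numbered 738, 407, 312 and 128 in organoids for both ASOs, ASO1, ASO2 and scASO against Mock (0 in each main fit), 4 for the difference of the responses, 6715 for organoid against tumor scASO, 0 for tumor ASO1 against scASO (main 1) and 1 for the tumor slope. With it Malat1 turned to -0.16 in tumors (ASO1 against ASO2, main 0.08), the tumor slope of Slc25a45 to 0.26, and Tigd3 to -0.0756 in organoids against Mock and -0.16 in organoid against tumor scASO. The block changed no call of a neighbour except that Pola2 was called in organoid against tumor scASO. In the fits of all 26 libraries, which gave the 4 and the 6715 genes, tumors and organoids of the same number shared a block term. Without the block the organoid slope called 0 genes, and Neat1 turned to 0.033, Dpf2 to 0.0026 and Pola2 to 0.0012.

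Without the 2 libraries that went against their labels, Malat1 against scASO was -2.65 and its ratio to Neat1 -2.66 (main -1.49 and -1.43). The 1 gene called against Mock was Malat1 itself, whose level named the 2 libraries, so its calls without them are no test. The organoid slope called 341 genes. Neat1 turned to 0.0039 against scASO and 0.0075 in the slope, and Pola2 to -0.0423 for scASO against Mock. With the block as well, 4, 1 and 3 genes were called for both ASOs, ASO1 and ASO2 against scASO, with Malat1 in each of these sets. The counts were 1709, 1159 and 593 against Mock and 308 for scASO against Mock. There Neat1 and Pola2 turned to 0.14 and 0.0921 against scASO, Slc25a45 to 0.021 against Mock, Pola2 to -0.0962 for scASO against Mock and Tigd3 to -0.29 in organoid against tumor scASO.

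Group means in the slope gave 4718 calls in organoids and turned Ltbp3 to -0.0051 there; in tumors Frmd8 turned to -0.24, Ltbp3 to -0.0281 and Pola2 to 0.11. Without Mock the organoid slope called 0 genes and Ltbp3 turned to -0.0105. DESeq2 called 18, 130, 44 and 164 genes in tumors (both ASOs, ASO1 and ASO2 against scASO, ASO1 against ASO2), 5 and 7 in organoids (both ASOs and ASO1 against Mock) and 2 for the difference of the responses. Without a filter 3 genes were called for tumor ASO1 against scASO and 4 for ASO1 against ASO2; with the spread of the compared groups alone the first was 0. Upper quartile scaling turned Tigd3 to -0.096 in organoid against tumor scASO and moved the median of all genes there by -0.11, more than in any other comparison.

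Leaving out 1 library at a time, the Malat1 level against scASO spanned -1.51 to -0.92 in tumors and -2.23 to -1.11 in organoids, and the ratio to Neat1 -2.16 to -1.16 in organoids and -1.03 to 0.0314 for tumor ASO1. In tumors Malat1 (ASO1 against ASO2) spanned -0.0933 to 0.33, Neat1 -0.32 to 0.34 and the slope of Frmd8 -0.0349 to 0.13. In organoids against scASO Neat1 spanned -0.16 to 0.0932, Cdc42ep2 -0.0183 to 0.28, Ltbp3 -0.012 to 0.13 and Dpf2 -0.0486 to 0.0785. Against Mock Neat1 spanned -0.34 to 0.17, Tigd3 -0.24 to 0.19, Pola2 -0.17 to 0.0302, Ltbp3 -0.14 to 0.0261, Dpf2 -0.11 to 0.0038 and Slc25a45 -0.42 to 0.12. For scASO against Mock Neat1 spanned -0.29 to 0.21, Dpf2 -0.13 to 0.0064, Slc25a45 -0.11 to 0.47 and Pola2 -0.0363 to 0.20. The organoid slope of Ltbp3 spanned -0.003 to 0.0279, and Tigd3 in organoid against tumor scASO -0.0473 to 0.081. Calls ran from 0 to 3 for tumor ASO1 against scASO, 0 to 1 for tumor ASO2 against scASO, ASO1 against ASO2 and the difference of the responses, 2632 to 4709 for organoid against tumor scASO and 0 to 15 for the organoid slope.

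Over the alternatives of 56 results of the neighbours, 58 of 1248 values changed sign, in 25 results whose main size was at most 0.19. Cdc42ep2 was not called in organoid against tumor scASO under upper quartile scaling (adjusted p = 0.0583), without a filter (0.0715), or with the block and without the 2 libraries (0.0538). Depth limits Tigd3 most, with as few as 4 reads.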
